A study of Homo sapiens with 4 samples.

Results

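RNA recovered with an antibody against PABPC1 was compared with input RNA in MDA-MB-231 cells, an established line of human triple-negative breast cancer with mesenchymal character. These are 2 of the 4 libraries of the series. Cells were grown in L15 medium with serum and lysed, the lysate was incubated with magnetic beads carrying the antibody, and RNA was extracted with Trizol. The other libraries come from the same line after transfection with a silencer of LINC00882, a long non-coding RNA (si_LINC00882), or with a negative control silencer (si_NC). The labels mention an IgG precipitation, but no IgG library was analysed here, so RNA held by the antibody and RNA held by the beads alone cannot be told apart. Both libraries were joined on gene ID, which gave 11712 genes, and the 10856 with at least 1 FPKM (fragments per kilobase of a gene's transcript, relative to all mapped fragments) in either library were compared. Each gene was described by the log2 ratio of pulldown to input after adding 1 FPKM to both, so that the ratios of low genes are understated. Each group was 1 library, so there was no test, and the values below describe these libraries only. The minimum passed genes such as ST6GALNAC5 (0.766 FPKM in input against 1.001 in the pulldown) and left out genes such as TNFAIP8 (0.974 and 0.999).

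PABPC1 is the main cytoplasmic poly(A)-binding protein. It coats the poly(A) tail of mRNAs, binds the initiation scaffold eIF4G at the cap and so favours translation, and it is the substrate on which deadenylases and their adaptors act. Most mRNAs made by RNA polymerase II carry a long tail, while the mRNAs of replication-dependent histones end in a stem-loop, and those of mitochondrial DNA carry short tails inside the organelle, away from cytoplasmic PABPC1.

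For the shares given next, input lay above both transfected libraries and the pulldown lay below them. Mitochondrially encoded mRNAs held 47.3% of the summed FPKM of input, against 3.08% in the pulldown, while si_NC held 16.3% and si_LINC00882 19.3%. Of the nuclear FPKM, the 100 most abundant nuclear genes held 25.4% in input and 17.5% in the pulldown, and 19.3% in si_NC and 18.96% in si_LINC00882. Each list is therefore also set against si_NC, in the text or in the plot of list medians against both control libraries. That library had another treatment and comes from another table, and its comparison with the pulldown shares the pulldown library. Of the mesenchymal markers VIM, CD44, CAV1, AXL and LGALS1 were well expressed in both libraries and SPARC was not among the listed genes. Of the luminal and epithelial markers ESR1, PGR and CDH1 were not listed, GATA3 and EPCAM were low (1.21 to 10.5 FPKM in these 2 libraries), and KRT19 stood at 62.9 FPKM in input against 68.8 in the pulldown. PTPRC, CD3E and PECAM1, markers of blood and endothelial cells, were not listed, whereas the liver gene ALB was listed at 0 in input and at 4.47 FPKM in the pulldown. The part of other cells or of carried-over RNA in these values was not tested.

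Most genes lay somewhat higher in the pulldown than in input. The median log2 ratio was 0.47, a 1.38-fold difference, and 76.1% of genes lay above 0. The middle 50% of genes ran from 0.022 to 0.88, and the 5th and 95th percentiles lay at -0.70 and 1.68. As deposited, 2124 genes (19.6%) were higher by 2-fold or more and 257 (2.37%) lower by 2-fold or more. After the median was subtracted from every log2 ratio, 802 genes (7.39%) were 2-fold higher and 831 (7.65%) 2-fold lower, a balance that the centring itself largely sets. Rescaling both libraries to an equal sum over nuclear genes gave a median of 0.46. That step also raised all values several-fold before the pseudocount of 1 was added, which lowered the weight of the pseudocount. The 0.46 therefore mixes both changes and does not isolate the mitochondrial share. Over si_NC the median was 0.16, with 774 of 10810 genes (7.16%) 2-fold higher and 268 (2.48%) 2-fold lower. These shares of all genes are the background for the counts given below for each list. Input listed 87 genes at 0 and the pulldown 10. Of those 87, 8 reached 5 FPKM in the pulldown, and 6 of these 8 overlap another listed gene, where the division of fragments is uncertain. The plot of both libraries' levels shows the whole comparison.

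**Figure D1:**
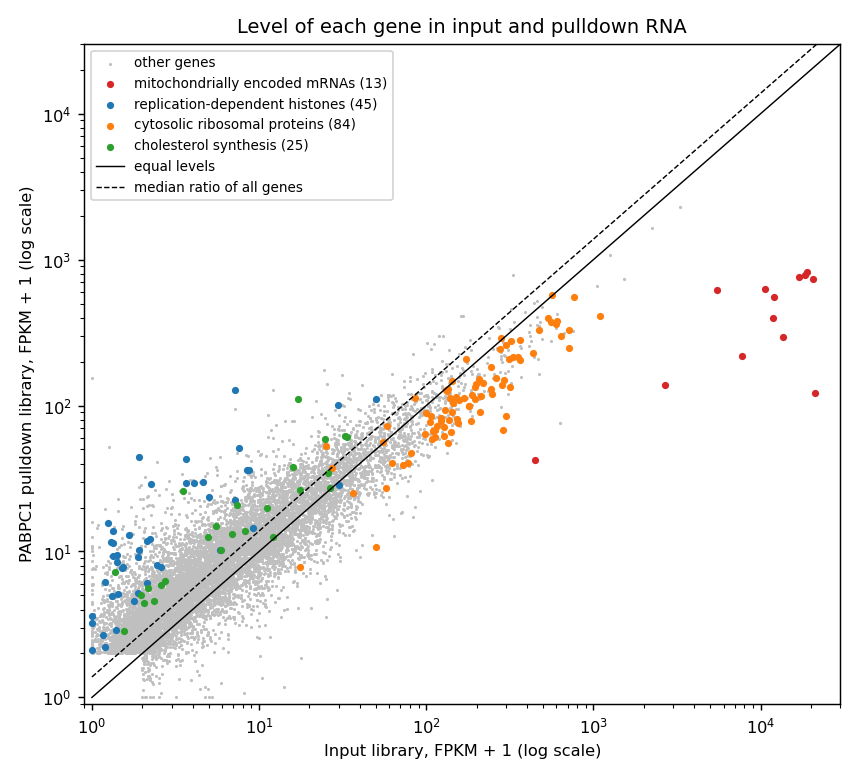
FPKM + 1 of each compared gene in the input library (x axis, log scale) and in the PABPC1 pulldown library (y axis, log scale), 1 point a gene, with 4 gene lists in colour, the line of equal levels and the dashed line of the median ratio. Mitochondrially encoded mRNAs lie far below both lines, replication-dependent histones above them, and ribosomal protein mRNAs mostly just below the line of equal levels.

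PABPC1 mRNA itself stood at 412 FPKM in input, 255 in the pulldown and 173 in si_NC, a log2 ratio of -0.69 over input and 0.55 over si_NC. The 26 compared mRNAs for poly(A)-binding proteins and their binding partners were spread around the median of all genes, with 12 above it and 14 below, and a list median of 0.33. Only 1 of them was 2-fold higher, EIF4G1, which encodes the eIF4G scaffold, at 12.7 FPKM in input, 56.4 in the pulldown and 96.4 in si_NC (2.07). None was 2-fold lower. Its paralog EIF4G3 stood at 8.08, 8.81 and 12.4 FPKM in the same order (0.11). EIF4G1 was thus lower in input than in the pulldown, and lower in the pulldown than in si_NC. The cause was not tested.

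The lowest ratios among these partners were those of PABPC4, PAIP2, PABPC1 and PAIP1, followed by USP10 (-0.46). PABPC4, the inducible cytoplasmic paralog, stood at 62.8 FPKM in input against 31.6 in the pulldown (-0.97). PAIP2, which displaces PABPC1 from poly(A), stood at 55.1 and 31.3 (-0.79), and PAIP1, which helps it to stimulate translation, at 39.3 and 27.6 (-0.50). In si_NC these 3 stood at 35.3, 13.2 and 29.6 FPKM, so that PAIP2 was higher in the pulldown than in si_NC. The termination factors GSPT1 (27.9 and 21.95, -0.33) and ETF1 (47.2 and 53.0, 0.16) and the initiation factor EIF4B (42.3 and 53.0, 0.32) differed little between the libraries. The nuclear poly(A)-binding protein gene PABPN1 (45.9 and 58.5, 0.35) overlaps another listed gene. Several other partners lay higher. The deadenylase subunit PAN3 stood at 5.09 FPKM in input against 10.6 in the pulldown (0.93). The GW182 proteins of microRNA silencing TNRC6A (2.40 and 5.35, 0.90) and TNRC6B (1.77 and 4.28, 0.93) and the adaptor TOB2 (7.02 and 12.2, 0.72) gave similar values, as did LARP4B (0.86), ATXN2L (0.85) and the termination factor GSPT2 (0.73), while TOB1 stood at 12.2 in both (a log2 ratio of 0.0021). LARP1 and LARP4, which bind TOP mRNAs and poly(A), lay near the median at 0.51 and 0.52.

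The 21 genes of the CCR4-NOT complex and of decapping had a median of 0.68, and 5 were 2-fold higher (23.8%) against 19.6% of all genes. After centring none was 2-fold higher and 3 were 2-fold lower, against 7.39% and 7.65% of all genes. EDC4, a scaffold of decapping, stood at 1.56 FPKM in input, 5.24 in the pulldown and 7.84 in si_NC (1.29). The subunits CNOT9 (12.2 and 7.64, -0.61) and CNOT7, a catalytic deadenylase (8.90 and 5.83, -0.54), lay lowest of those named by the rule. Over si_NC none was 2-fold higher and the median was 0.077.

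Mitochondrially encoded mRNAs were the most depleted list. The 13 mRNAs ran from 444 to 21171 FPKM in input (median 12025), from 41.5 to 817 in the pulldown (552) and from 277 to 4737 in si_NC (3080). All 13 were at least 2-fold lower in the pulldown than in input, with ratios of -7.44 to -3.15, and all 13 were also lower than in si_NC (median -2.53). MT-CYB, cytochrome b of complex III, stood at 7701 FPKM in input against 219 in the pulldown (-5.13). MT-ND3, a complex I subunit, stood at 13685 and 293 (-5.54). Even so, 4 of the 8 most abundant mRNAs of the pulldown were mitochondrial, MT-CO2 (817 FPKM), MT-ATP8 (777), MT-ND4 (760) and MT-CO3 (732), of which MT-CO2 alone overlaps no other listed gene. Among the rest were TMSB10, a thymosin that binds actin monomers (2273), the ferritin light chain FTL (1633) and beta-actin ACTB (1072). In input TMSB10 (3279 FPKM, -0.53), FTL (2226, -0.45) and ACTB (1252, -0.22) stood higher than in the pulldown.

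Replication-dependent histones lay at the other end. The 45 compared genes had a median level of 0.913 FPKM in input, 10.5 in the pulldown and, for the 31 listed there, 1.11 in si_NC. They were 2-fold higher in 41 cases (91.1%, against 19.6% of all genes), or 35 after centring, against 7.39% of all genes. The median ratio was 2.29, or 1.82 above all genes. Of the 45, 24 were below 1 FPKM in input and so were compared only because of their pulldown level, and none was below 1 FPKM in the pulldown. All 31 genes that could be set against si_NC were 2-fold higher in the pulldown than there (median 3.08), against 7.16% of all genes. The lowest of them stood at 0 FPKM in si_NC. Those below 1 FPKM in si_NC were again compared only because of their pulldown level, so this count is not free of that filter. HIST1H1E, a linker histone, stood at 6.17 FPKM in input, 126 in the pulldown and 2.25 in si_NC (4.15). HIST1H4C, an H4 gene, was the lowest of the list at 28.96 in input, 27.4 in the pulldown and 2.96 in si_NC (-0.077), and it is named after its values were seen. Its level was thus near equal in both lysate libraries and far lower in si_NC.

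The 10 histone variants with polyadenylated mRNAs did not share this shift. Their median was 0.40, close to all genes, with H1F0, a linker histone of non-dividing cells, 2-fold higher (106 FPKM in input, 244 in the pulldown and 58.7 in si_NC, 1.20). H3F3A, which encodes the replacement histone H3.3, was 2-fold lower (103, 44.4 and 32.7, -1.19), and its sister gene H3F3B, which encodes the same protein, stood at 63.0, 54.2 and 36.3 (-0.21). Against si_NC the list lay 0.58 above all genes, so its position depended on the control library.

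TOP mRNAs, which begin with a C and a run of pyrimidines and encode ribosomal proteins and other parts of the translation machinery, were low in the pulldown relative to other genes, and PABPC1 itself is counted among them. The windows below run from 10 bases before to 20 bases from the annotated RefSeq start (GRCh38.p14, gene strand), with a TOP-like tract in capitals, here a C followed by at least 5 bases that are each C or T, beginning within 10 bases of the start. They show the 4 lowest ribosomal protein mRNAs of the rule, of which RPS29, the lowest, has no such tract, other low TOP mRNAs that have one, the elongation factor EEF1A1 (added after its values were seen), and below them 3 genes of high ratio without one.
RPS29, chr14:49598691-49598720, minus strand: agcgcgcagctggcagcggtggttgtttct
RPS3A, chr4:151099618-151099647, plus strand: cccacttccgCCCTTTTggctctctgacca
RPL39, chrX:119791611-119791640, minus strand: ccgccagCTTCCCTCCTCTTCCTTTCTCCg
RPS21, chr20:62387093-62387122, plus strand: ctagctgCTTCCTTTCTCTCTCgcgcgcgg
TPT1, chr13:45341164-45341193, minus strand: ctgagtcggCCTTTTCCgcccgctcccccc
NAP1L1, chr12:76084666-76084695, minus strand: gctcttgggtCTTTTTTagcgccatctgct
EEF1A1, chr6:73521013-73521042, minus strand: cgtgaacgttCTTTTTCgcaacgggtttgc
TMED2, chr12:123584542-123584571, plus strand: ggcggtggctgagaaggcagcggggcggcg
RAB5C, chr17:42154970-42154999, minus strand: gctgaaaggcggaagtggaggccggagcct
INSIG1, chr7:155297868-155297897, plus strand: gccaggcgctgcggccgtcccgggccgtga

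Of the 84 cytosolic ribosomal protein genes, 75 lay below 0 and 83 below the median of all genes. Their levels ran from 16.5 to 1097 FPKM in input (median 170) and from 6.86 to 573 in the pulldown (111), with a median of 119 in si_NC. As deposited 18 were 2-fold lower (21.4%, against 2.37% of all genes) and 1 was 2-fold higher. After centring 53 were 2-fold lower, against 7.65% of all genes. RPS3A, a protein of the small subunit, stood at 286 FPKM in input, 66.9 in the pulldown and 171 in si_NC (-2.08). RPS29, another small-subunit protein, stood at 48.7, 9.70 and 14.1 (-2.22), and RPL39 at 298, 83.6 and 97.5 (-1.82). The 1 higher gene, RPL7L1, is a paralog of RPL7 (24.1, 51.5 and 36.7, 1.07), and it is named after its values were seen. Against si_NC the list median was -0.20, and 2 of the 84 genes were 2-fold lower, against 2.48% of all genes. Relative to all genes the list lay at -0.36 instead of -1.13.

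The 19 other TOP mRNAs had a median of -0.36, or -0.83 relative to all genes, and -0.34 over si_NC, or -0.50 relative to all genes. TPT1, the translationally controlled tumour protein, stood at 117 FPKM in input, 58.2 in the pulldown and 32.9 in si_NC (-0.998), just short of 2-fold lower. NAP1L1, a histone chaperone, stood at 59.1, 36.4 and 41.9 (-0.68). EEF1A1, the factor that brings tRNA to the ribosome, stood at 461, 354 and 606 (-0.38) and EEF2, the translocation factor, at 86.0, 119 and 364 (0.46), both named after their values were seen. Both elongation factors thus stood below si_NC in input and in the pulldown. Of the 19, 1 was 2-fold lower and 1 2-fold higher. VIM, the intermediate filament protein, was the lower one (367, 155 and 260, -1.24), and its window held no TOP-like tract. EIF4A2, an RNA helicase of initiation named after its values were seen, was the higher one (12.2, 35.6 and 40.6, 1.47).

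The tract alone did not go with a low ratio. Among the compared genes with a RefSeq window, 1857 of 8942 (20.8%) held a TOP-like tract, near the 20.5% of all 27305 windows, and their median of 0.44 was close to the 0.47 of the 7085 without. Without the ribosomal protein genes the medians were 0.47 in both classes. Of 67 ribosomal protein genes with a window, 52 (77.6%) held the tract. Those 52 had a median of -0.71 and the 15 without it -0.61, so both were low. A window without these letters says nothing about where transcription starts in these cells.

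Other parts of the translation machinery lay below the median of all genes by less than the TOP mRNAs in the comparison with input. The 39 translation initiation factors had a median of 0.17. As deposited 4 were 2-fold higher (10.3%, against 19.6% of all genes) and 3 were 2-fold lower (7.69%, against 2.37%). Over si_NC none was 2-fold higher and 5 were 2-fold lower, against 2.48% of all genes, and the list lay at -0.41 relative to all genes. EIF1AX, which helps the scanning ribosome, stood at 112 FPKM in input, 50.9 in the pulldown and 75.2 in si_NC (-1.12). EIF2S2, a subunit of the factor that delivers the initiator tRNA, stood at 284, 139 and 164 (-1.03). The 20 cytosolic aminoacyl-tRNA synthetases had a median of 0.17 as well, and IARS, the isoleucine enzyme, was the highest of them (6.38, 30.8 and 57.7, 2.11). EPRS, which charges glutamate and proline, stood at 23.2, 14.9 and 52.6 (-0.60), the lowest. Over si_NC the synthetases lay at -0.95 relative to all genes, with 5 of 20 at 2-fold lower, against 2.48% of all genes. They were thus lower against that library than against input, where they lay at -0.29.

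Subunits of large housekeeping complexes were mostly below the median of all genes. For 75 subunits of oxidative phosphorylation encoded in the nucleus the median was -0.23, or -0.70 relative to all genes, and 67 of them were below the median of all genes. NDUFB5, a complex I subunit, stood at 15.4 FPKM in input, 6.50 in the pulldown and 7.23 in si_NC (-1.13), and NDUFB4 at 47.8, 23.8 and 10.5 (-0.98). SDHA, the flavoprotein of complex II, went the other way (3.85, 15.8 and 21.3, 1.79). Over si_NC the list lay 0.10 above all genes, so its low position was found against input only. The 78 mitochondrial ribosomal proteins (0.14), 34 proteasome subunits (0.17), 52 spliceosome and SR proteins (0.27) and 21 hnRNP proteins (0.13) lay at -0.34 to -0.19 relative to all genes.

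Single members of these complexes differed widely from their list. PSMA7, a ring subunit of the proteasome core, stood at 319 FPKM in input against 142 in the pulldown (-1.16), whereas PSMD4, its ubiquitin receptor, stood at 11.3 and 38.6 (1.69). SRSF11 stood at 29.1 and 10.1 (-1.44) and SRSF5, another SR splicing factor, at 4.92 and 27.0 (2.24). MRPL10, of the large mitochondrial subunit, stood at 0.533 and 7.27 (2.43) and MRPL1 at 37.2 and 15.6 (-1.20). In si_NC, PSMD4 (41.8 FPKM), SRSF5 (22.5) and MRPL10 (10.1) stood near or above their pulldown level. HNRNPA1L2, a retrocopy of HNRNPA1 whose fragments may be shared with it, stood at 9.43 in input, 0.353 in the pulldown and 9.69 in si_NC (-2.95).

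**Figure D2:**
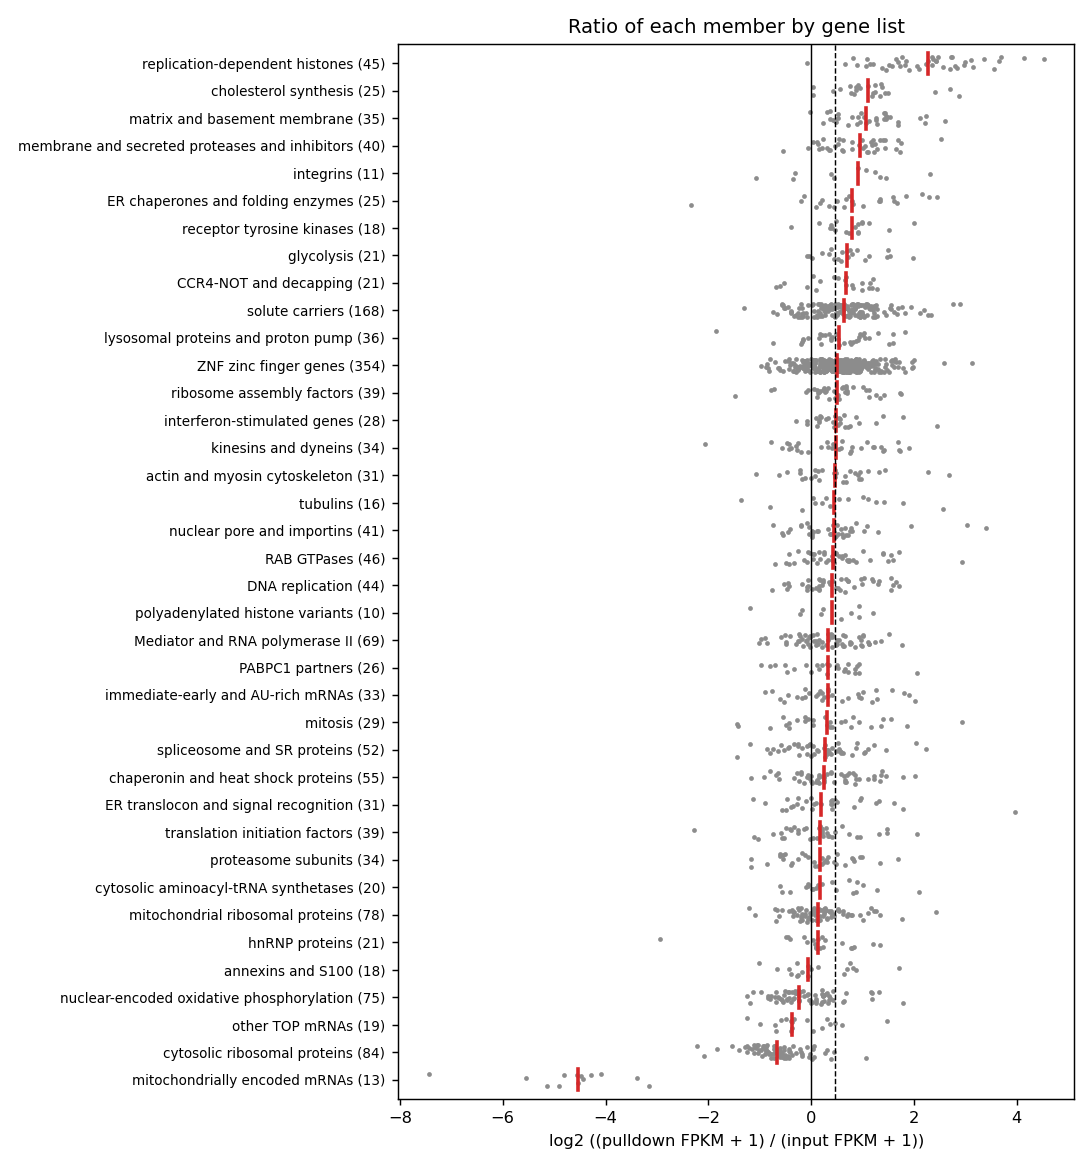
Log2 ratio of pulldown to input, (FPKM + 1) over (FPKM + 1), for every compared member of the 38 gene lists (grey points, number of members in brackets), with each list's median as a red bar, 0 as a solid line and the median of all genes, 0.47, as a dashed line. Histones and mitochondrially encoded mRNAs lie at the ends, and most other list medians lie within 0.5 of the dashed line.

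Of the 38 lists, 8 had a median at least 0.5 from that of all genes, 3 above it and 5 below. Those above were replication-dependent histones, cholesterol synthesis, and matrix and basement membrane. Those below were mitochondrially encoded mRNAs, cytosolic ribosomal proteins, other TOP mRNAs, nuclear-encoded oxidative phosphorylation, and annexins and S100.

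As a list, cholesterol synthesis genes stood higher in the pulldown than in either control library. Of 25 genes 13 were 2-fold higher than input (52%, against 19.6% of all genes) and none was lower, with a median of 1.11, or 0.65 above all genes. After centring 4 of the 25 were 2-fold higher, against 7.39% of all genes. Of the 25, 3 were below 1 FPKM in input and were compared only because of their pulldown level. Over si_NC 7 of 25 were 2-fold higher, against 7.16% of all genes, and the median was 0.76, or 0.60 above all genes. INSIG1, which retains the sterol sensor complex in the endoplasmic reticulum, stood at 16.2 FPKM in input, 111 in the pulldown and 17.4 in si_NC (2.70). SREBF2, the transcription factor of the pathway, stood at 6.42, 19.98 and 10.5 (1.499).

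The 35 matrix and basement membrane genes had a median of 1.07 over input, and 19 were 2-fold higher (54.3%, against 19.6% of all genes). After centring 8 were, against 7.39% of all genes. Of the 35, 14 were below 1 FPKM in input and none in the pulldown, so that these were compared only because of their pulldown level, and TNC, LTBP2 and COL6A1 are among them. TNC, the matrix glycoprotein tenascin C, stood at 0.543 FPKM in input, 8.35 in the pulldown and 6.83 in si_NC (2.60). LTBP2, a microfibril protein, stood at 0.447, 5.73 and 4.05 (2.22) and COL6A1, a collagen VI chain, at 0.679, 6.26 and 12.7 (2.11). Over si_NC none was 2-fold higher and 8 were 2-fold lower, against 2.48% of all genes. The median there was -0.37, or -0.53 relative to all genes. Of 11 integrins, the receptors of this matrix, 5 were 2-fold higher than input (45.5%, against 19.6% of all genes). After centring 1 was, against 7.39% of all genes, and over si_NC none. Of the 11, 3 were below 1 FPKM in input and none in the pulldown, so these 3 were compared only because of their pulldown level. ITGA3, the laminin-binding alpha-3 subunit, stood at 8.82 FPKM in input, 47.7 in the pulldown and 113 in si_NC (2.31).

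Other proteins made at the endoplasmic reticulum lay above the median in part. Of 40 membrane and secreted proteases and inhibitors 19 were 2-fold higher than input (47.5%, against 19.6% of all genes), with a median of 0.96. Of the 40, 8 were below 1 FPKM in input and none in the pulldown, so these 8 were compared only because of their pulldown level. After centring 5 of the 40 were 2-fold higher, against 7.39% of all genes, and over si_NC 4 of 38, against 7.16%. Among them was MMP14, a membrane-anchored matrix metalloprotease (10.7 FPKM in input, 66.8 in the pulldown and 69.5 in si_NC, 2.53). ADAMTS12, a secreted metalloprotease, stood at 3.02, 9.92 and 10.7 (1.44), and TIMP2, an inhibitor of metalloproteases, at 63.0, 43.1 and 31.1 (-0.54). Of 25 endoplasmic reticulum chaperones and folding enzymes 11 were 2-fold higher (44%, against 19.6% of all genes, median 0.80), and 7 after centring, against 7.39% of all genes. The calcium-binding proteins RCN1 (7.38, 44.8 and 72.2, 2.45) and CALU (11.1, 58.9 and 115, 2.30), the prolyl isomerase FKBP9 (1.88, 11.8 and 10.1, 2.16) and the chaperone HYOU1 (7.93, 31.3 and 32.6, 1.86) led them. Over si_NC 1 of the 25 was 2-fold higher, against 7.16% of all genes.

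The machinery that receives these proteins lay lower against input but not against si_NC. The 31 genes of the translocon and of signal recognition had a median of 0.19, below all genes. Of them 5 were 2-fold higher (16.1%, against 19.6% of all genes), or 3 after centring, against 7.39%. Over si_NC 5 of the 31 were 2-fold higher, against 7.16% of all genes. The list lay 0.091 above all genes there, against 0.0066 for the chaperones. SEC62, a translocon partner, stood at 36.4 FPKM in input, 16.1 in the pulldown and 17.6 in si_NC (-1.13). SRP14, a protein of the signal recognition particle, stood at 31.2, 97.5 and 47.8 (1.61). Solute carriers (median 0.64, 41 of 168 or 24.4% at 2-fold higher), lysosomal genes (0.53, 9 of 36 or 25%) and receptor tyrosine kinases (0.80, 3 of 18 or 16.7%) had shares near that of all genes (19.6%). After centring 15, 4 and 2 were 2-fold higher, against 7.39% of all genes. In the same order, 28, 3 and 4 genes were below 1 FPKM in input and were compared only because of their pulldown level. In the pulldown only 1 solute carrier was below 1 FPKM. SLC39A7, a zinc exporter of the secretory pathway, stood at 15.2, 77.9 and 70.4 (2.28), and EPHB2, an ephrin receptor, at 0.905, 6.65 and 4.74 (2.005).

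**Figure D3:**
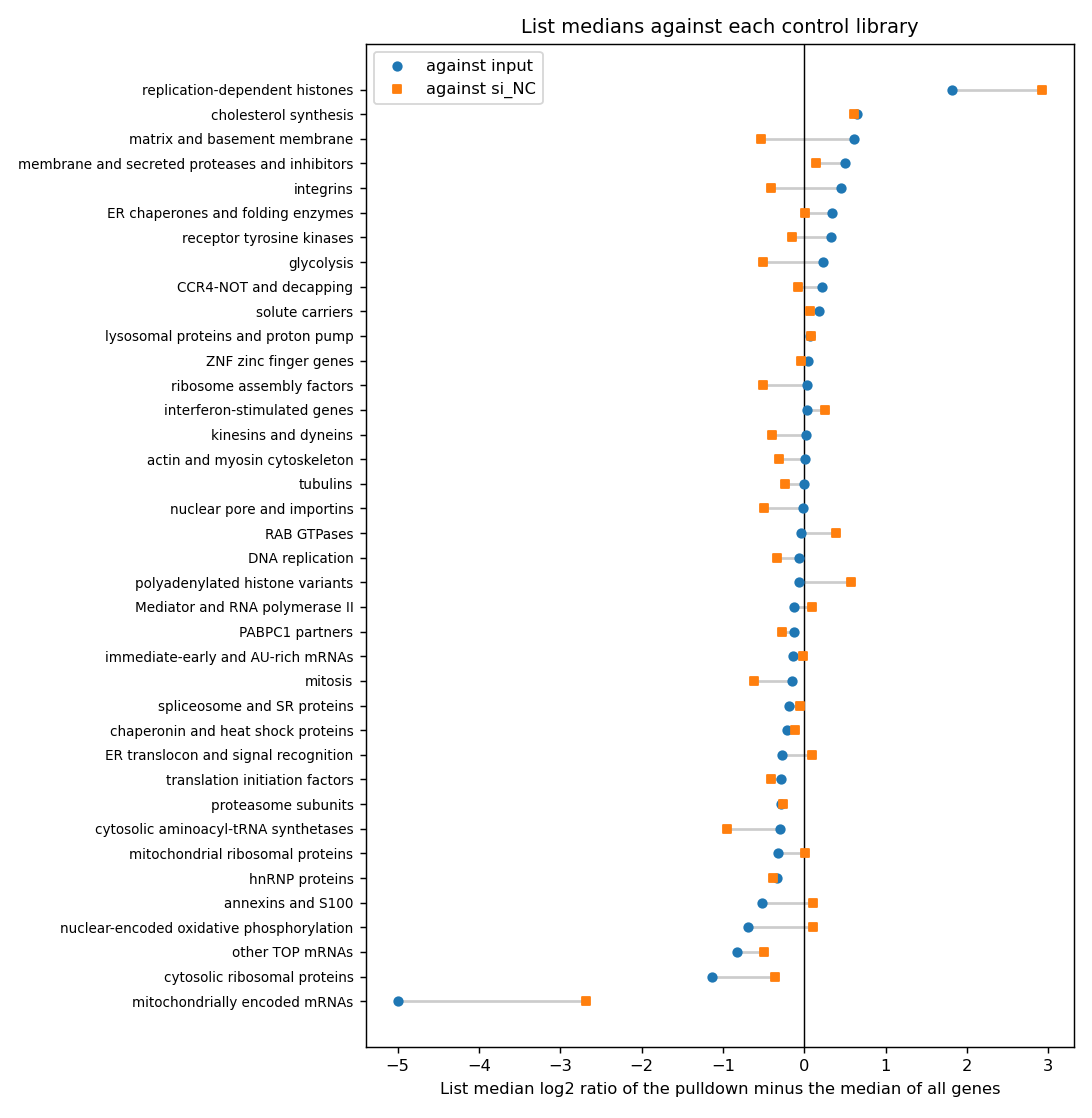
Median log2 ratio of the pulldown for each of the 38 gene lists minus the median of all genes, against input (blue circles) and against si_NC (orange squares), sorted by the value against input. Mitochondrially encoded mRNAs (-4.99 and -2.68) and cholesterol synthesis (0.65 and 0.60) lie on the same side in both, while matrix and basement membrane (0.60 and -0.53) and nuclear-encoded oxidative phosphorylation (-0.70 and 0.10) change sides.

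Among well-measured genes, those with at least 5 FPKM in both libraries, coding for protein and overlapping no other listed gene, 4119 were eligible for the highest and lowest ratios, mitochondrial and histone genes aside. The highest were led by YWHAH, the eta form of the 14-3-3 adaptor proteins, at 6.14 FPKM in input, 94.0 in the pulldown and 68.7 in si_NC (3.73). TMED2, a cargo receptor of vesicles between the endoplasmic reticulum and the Golgi, stood at 11.1, 127 and 38.6 (3.40). RAB5C, a GTPase of early endosomes, stood at 10.3, 85.1 and 22.5 (2.93). ARF1, the GTPase that recruits the COPI coat, stood at 23.4, 175 and 69.1 (2.85). The last 3 and INSIG1 were the 4 of the 12 highest genes that were also 2-fold above si_NC. In si_LINC00882 TMED2 stood at 74.7 FPKM, RAB5C at 25.5, ARF1 at 154 and INSIG1 at 13.5. TMED2 and ARF1 were thus not 2-fold above that library.

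For 7 of these 12 genes the pulldown lay within 2-fold of si_NC, and for AHNAK it was lower. AHNAK, a very large scaffold protein, stood at 6.38 FPKM in input, 46.4 in the pulldown and 111 in si_NC (2.68). In si_LINC00882 it stood at 3.43 FPKM, so its place relative to the pulldown differed between the transfected libraries. ALCAM, an adhesion molecule, stood at 13.3, 77.6 and 68.5 (2.46) and TXNRD1, cytosolic thioredoxin reductase, at 24.6, 139 and 134 (2.45). The transcription regulators ELK3 (10.3, 59.8 and 40.4, 2.43) and YAP1 (7.62, 43.9 and 25.4, 2.38) completed them with MMP14 and RCN1.

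The lowest ratios were led by TOMM6, a small subunit of the import channel of the mitochondrial outer membrane, at 632 FPKM in input, 74.4 in the pulldown and 261 in si_NC (-3.07). YTHDF2, which reads m6A and recruits deadenylases, stood at 39.4, 8.22 and 5.04 (-2.13). KIF20B, a kinesin of cytokinesis, stood at 84.3, 19.3 and 46.1 (-2.07) and NFE2L2, the transcription factor of the antioxidant response, at 24.3, 5.49 and 13.8 (-1.96). ESF1, a nucleolar protein of ribosome assembly, stood at 70.7, 17.6 and 33.9 (-1.95). Of the 12 lowest genes, 4 were also 2-fold below si_NC, namely TOMM6, RPS3A, KIF20B and NFE2L2. The other 8 lay within 2-fold of si_NC, among them the splicing factor PRPF38B (22.01, 5.06 and 8.03, -1.93), RTN3, a reticulon of the endoplasmic reticulum (61.9, 15.6 and 13.7, -1.92), and LAPTM4B, a lysosomal membrane protein (46.5, 11.99 and 11.1, -1.87). RWDD1 (-1.90) and CCDC34 (-1.88) were also among them.

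**Figure D4:**
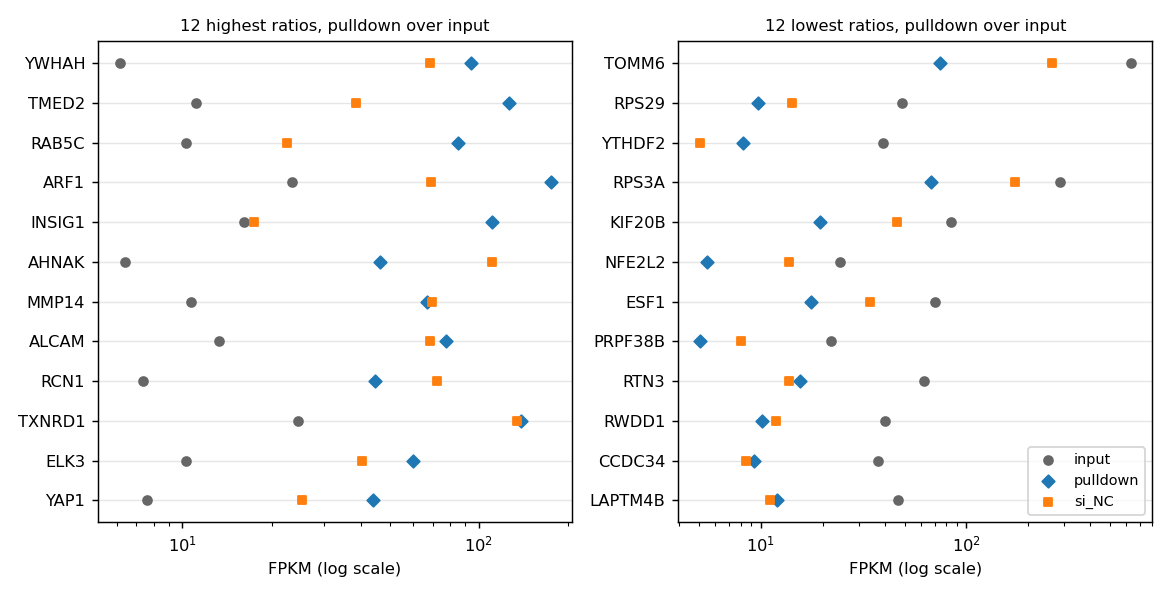
FPKM (log scale) of the 12 highest and 12 lowest ratios of pulldown over input in the input (grey circles), pulldown (blue diamonds) and si_NC (orange squares) libraries, 1 library each. On the log2(FPKM + 1) scale the si_NC level was nearer to the pulldown than to input for 8 of the 12 lowest genes and 10 of the 12 highest.

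Against input, cytoskeletal and motor genes were centred on the median of all genes with wide spread. Over si_NC 10 of 31 actin and myosin genes were 2-fold lower, against 2.48% of all genes, and relative to all genes this list lay at -0.32, tubulins at -0.24 and kinesins and dyneins at -0.40. In the 31 actin and myosin genes (median 0.47, 5 at 2-fold higher), FLNA, the actin cross-linker filamin A, stood at 21.0 FPKM in input, 106 in the pulldown and 155 in si_NC (2.29), and PFN1, which feeds actin monomers to filaments, at 661, 315 and 385 (-1.07). In the 16 tubulins (0.46) TUBB2B stood at 0.390, 7.27 and 1.54 (2.57) and TUBB3 at 9.83, 3.22 and 1.64 (-1.36), although close paralogs may share fragments. Of the 18 annexin and S100 genes (median -0.057) S100A10, the partner of annexin A2, stood at 553, 274 and 225 (-1.01), and S100A16 at 27.5, 92.0 and 52.2 (1.71). Over si_NC that list lay 0.11 above all genes. The 34 kinesins and dyneins had a median of 0.49, with 10 at 2-fold higher (29.4%), 4 after centring, and 1 lower. The 55 chaperonin and heat shock genes had a median of 0.25, with 9 higher (16.4%) and 1 lower. Of all genes 19.6% were 2-fold higher, and 7.39% after centring.

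The RAB GTPases of vesicle traffic and the enzymes of glycolysis stood on different sides of si_NC. Of 46 RAB genes 9 were 2-fold higher than input (19.6%, the share of all genes), with a median of 0.42. After centring 5 were, against 7.39% of all genes. Over si_NC 7 of 44 were higher, against 7.16% of all genes, with a median of 0.55. Of the 46, 6 were below 1 FPKM in input and were compared only because of their pulldown level. Of 21 glycolysis genes 6 were 2-fold higher than input (28.6%, against 19.6% of all genes), 4 after centring, with a median of 0.69. Over si_NC 1 was higher and 1 lower, against 7.16% and 2.48% of all genes, with a median of -0.35.

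Lists of the nucleus and of the cell cycle lay near the median of all genes against input. Medians were 0.51 for 354 ZNF genes (57 or 16.1% at 2-fold higher, 20 after centring), 0.33 for 69 Mediator and RNA polymerase II genes, 0.45 for 41 nuclear pore and importin genes, 0.50 for 39 ribosome assembly factors, 0.40 for 44 DNA replication genes and 0.31 for 29 mitosis genes. Over si_NC, relative to all genes, mitosis lay at -0.62, ribosome assembly at -0.51, nuclear pore and importins at -0.49 and DNA replication at -0.34, while ZNF genes lay at -0.046 and Mediator and RNA polymerase II at 0.091. TNPO1, an import receptor, stood at 1.89 FPKM in input, 29.4 in the pulldown and 33.2 in si_NC (3.40), and NUP153, of the nuclear basket, at 2.03, 23.8 and 41.8 (3.03). ECT2, which starts the cleavage furrow, stood at 3.04, 29.97 and 37.1 (2.94). TOP2A, topoisomerase II of mitotic chromosomes, stood at 149, 54.3 and 150.5 (-1.44), and CENPE, a kinetochore motor, at 22.4, 7.75 and 19.4 (-1.42). The first 3 were low in input alone, while TOP2A and CENPE were low in the pulldown alone.

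Short-lived and inducible mRNAs were likewise spread. Of 33 immediate-early and AU-rich mRNAs 8 were 2-fold higher than input (24.2%, against 19.6% of all genes, median 0.32). After centring 4 were, against 7.39% of all genes, and over si_NC 7 of 33, where 7.16% of all genes were. IL11, a cytokine of the IL6 family, stood at 22.4 FPKM in input, 86.4 in the pulldown and 15.97 in si_NC (1.90), and IL6 at 11.1, 48.0 and 24.3 (2.02). The chemokine CXCL8 stood at 232, 124 and 53.0 (-0.90), below input and above si_NC. For 28 interferon-stimulated genes the median was 0.49, and 4 were 2-fold higher than input (14.3%, against 19.6% of all genes). After centring 2 were, against 7.39% of all genes, and over si_NC 5 of 28, against 7.16%. Of the 28, 5 were below 1 FPKM in input and were compared only because of their pulldown level. BST2, which tethers virus particles, stood at 60.9, 162 and 53.8 (1.40), and IFITM1, which blocks virus entry, at 6.97, 26.4 and 5.66 (1.78).

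Above 2 FPKM, the ratio was lower in more abundant classes of genes by their level in si_NC, a library that entered neither side of it. Genes under 2 FPKM there had a median of 0.49 (1781 genes), below the next class. Genes of 2 to 10 FPKM had a median of 0.54 (5002 genes) and those of 10 to 50 FPKM 0.39 (3287). Genes of 50 to 200 FPKM had a median of 0.11 (540), and the 93 genes of 200 FPKM and over had -0.45, with 25 of them (26.9%) at 2-fold lower. All 13 mitochondrially encoded mRNAs stood at 277 FPKM or more in si_NC, so they are in this last class and among those 25. Abundant ribosomal protein mRNAs such as RPS21 (340 FPKM in si_NC) are in it too. The class median without these genes was not computed. Over si_NC the medians of the 4 classes from 2 FPKM up stood in the same order, from 0.15 to -0.33, although si_NC itself then sets the class.

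Gene structure and position went with small differences. Genes with a genomic span under 5 kb had a median of 0.25 (1002 genes) and those of 100 kb and over 0.54 (1836), whereas over si_NC the order was the opposite, 0.39 and 0.11. Genes whose promoter window held 65% GC and over had a median of 0.51 (4757) and those of 45 to 55% 0.38 (978), with 0.18 in both over si_NC. By chromosome, medians ran from 0.24 on chromosome 13 (187 genes) and 0.26 on chromosome 4 (375) to 0.61 on chromosome 22 (241) and 0.62 on chromosome 17 (661). Across genes, which are not independent replicates and share both libraries, Spearman's rho with the ratio was 0.097 for promoter GC (8942 genes), 0.10 for span (10756) and -0.11 for the level in si_NC (10703), all weak.

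**Figure D5:**
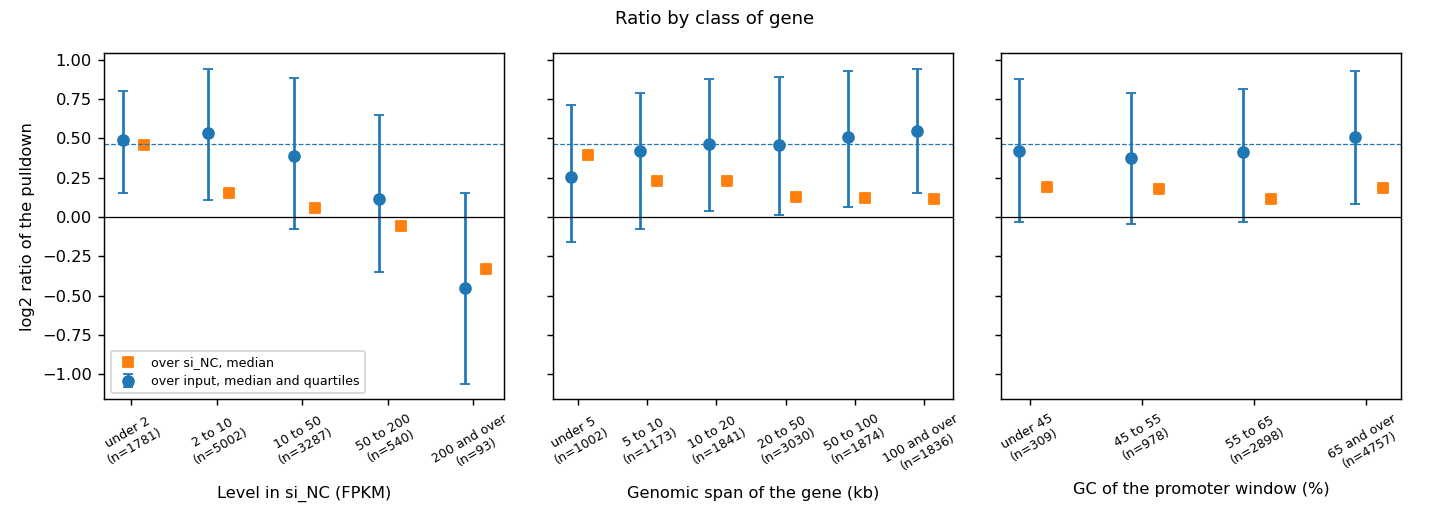
Median log2 ratio of the pulldown over input (blue circles, bars are the quartiles of the genes, not errors) and over si_NC (orange squares) by level in si_NC, genomic span and promoter GC, with the number of genes in brackets and the median of all genes over input as a dashed line. The ratio over input is lowest, at -0.45, for genes of 200 FPKM and over in si_NC, a class that holds all 13 mitochondrially encoded mRNAs. The ratio differs little by span or promoter GC.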

How the data were processed

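The deposited tables give FPKM per gene, 1 value a library, per the file headers. Tools named in the submitters' processing notes, with no role or order, are StringTie 1.3.3, HISAT2 2.1.0, cutadapt 1.17 and FastQC 0.11.7, and the build named is GRCh37. The sources used here state no annotation, filter, poly(A) selection or read depth, so neither intervals nor detection limits were given. Log2 ratios used a pseudocount of 1 FPKM, and genes at 2-fold or more were counted without a p-value. A list was called apart when its median lay at least 0.5 from that of all genes.

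The gene lists, classes and naming rules were chosen with earlier results of these data known. The rule named PABPC1 and its partners, the 12 highest and 12 lowest ratios, up to 4 members of each list that lay farthest from the median with at least 5 FPKM in either library and no overlapping gene, the 8 highest pulldown levels, and genes at the edge of the 1 FPKM minimum. Not every gene it names is described, and a few are not reported here. Classes by protein length and hydrophobic stretches were not run, since no protein table was used.

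Symbols were matched to RefSeq of GRCh38.p14 (11566 of 11712), which is not the build of the files and served for names, gene types, chromosomes, overlaps, spans and start windows. Of the compared genes 1964 overlap another listed gene. The comparison was tested on simulated data. The steps ran in Python 3.11.15 with matplotlib 3.10.9, pandas 2.3.3 and numpy 2.4.6. The alternatives were other pseudocounts, minimums and size rules, centred ratios, both libraries rescaled with mitochondrial genes removed, protein-coding genes without overlaps, and si_NC as the control.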

Additional observations from a re-analysis of the deposited data

How the results depend on the processing

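Each group is 1 library, so leaving out a replicate was not possible, no spread is known, and the depth of the libraries is not given. No paired analysis was possible because each group is 1 library. Classes by protein length, hydrophobic stretches and mRNA length were not run. In each case below the cause was not tested.

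The count of genes 2-fold higher was 3302 with a pseudocount of 0.1 FPKM, 623 with 5, 802 after centring and 774 over si_NC, and 4561 genes passed 1.5-fold and 639 passed 3-fold. The count 2-fold lower was 128 with a pseudocount of 5 and 831 after centring, and 737 genes passed 1.5-fold and 67 passed 3-fold. It was 425 when both libraries were rescaled without mitochondrial genes, which also lowered the weight of the pseudocount. The median ratio was 0 after centring, by construction, and 0.16 over si_NC.

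Of the list medians relative to all genes, histones were at 2.59 with a pseudocount of 0.1, 0.996 with 5, 2.44 after rescaling and 2.92 over si_NC. The value after rescaling also carries the lower weight of the pseudocount. Cholesterol synthesis was at 0.39 and oxidative phosphorylation at -0.43 with a pseudocount of 5, and matrix genes were at 0.94 with a minimum of 5 FPKM. Over si_NC mitochondrial mRNAs were at -2.68, ribosomal proteins at -0.36 and other TOP mRNAs at -0.50, while the sign turned for oxidative phosphorylation (0.10), matrix (-0.53) and annexins and S100 (0.11).

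Of the named genes past 2-fold over input, these changed sign over si_NC: ADAMTS12 (-0.094), AHNAK (-1.24), CALU (-0.96), CCDC34 (0.12), COL6A1 (-0.91), ECT2 (-0.30), EDC4 (-0.50), EIF4A2 (-0.18), EIF4G1 (-0.76), FLNA (-0.54), H3F3A (0.43), HYOU1 (-0.055), IARS (-0.88), ITGA3 (-1.23), LAPTM4B (0.10), MMP14 (-0.057), MRPL10 (-0.43), NUP153 (-0.79), PSMD4 (-0.11), RCN1 (-0.68), RTN3 (0.17), S100A10 (0.28), SDHA (-0.41), TNPO1 (-0.17), TUBB3 (0.68) and YTHDF2 (0.61).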
